A study of Mus musculus castaneus and Mus musculus domesticus and Mus musculus with 11 samples.

Results

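Motor neuron cultures of 2 mouse lines, CAST and 129, were compared over all genes of the deposited read matrix, with 3 libraries of each line. The members of the comparison are these 6 of the 9 libraries in the matrix, chosen by the strain in their labels, and the 14839 of 27071 genes that passed a filter on low counts. The series set up stem cell-derived neuronal cultures to study how neurite growth varies between mouse lines, and sequenced the differentiated motor neurons to describe their identity. CAST is CAST/EiJ, a wild-derived strain of the subspecies Mus musculus castaneus, and 129 is 129S6/SvEv, a laboratory strain that the labels place in Mus musculus domesticus. Both groups are labelled as motor neurons with no other genotype, agent, time or sort, and neither the number of clones behind a line nor the growth protocol is given in the sources used here. The other 3 libraries, from hybrid CASTx129 lines, entered the statistical fit only to share the estimate of the spread and are named below where their counts bear on a gene. The same aligner and build are named for them, but whether their reads were filtered and counted like those of CAST and 129 is not given in the sources used here, so a count of 0 in the hybrid is not read as absence of a transcript.

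Spinal motor neurons arise from ventral progenitors under sonic hedgehog and retinoic acid, express the transcription factors Mnx1, Isl1 and Lhx3, and release acetylcholine, which Chat makes and Slc18a3 loads into vesicles. Cultures made from stem cells usually hold other neurons, glia and mesenchymal cells besides. The genomes of CAST and of laboratory strains differ at many sites, and the mm10 reference to which all reads were aligned is that of C57BL/6J, a laboratory strain. A read count of a gene can therefore differ between CAST and 129 through expression and through how well reads fit the reference.

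Total counts were 18167577, 16763198 and 17179629 in 129 1 to 3, and 11167254, 16374911 and 13555712 in CAST 1 to 3. Levels below are CPM (read counts relative to the library total, scaled between libraries), given in the order of the replicate numbers. The library CAST 1 stood apart: relative log2 expression changed by −0.71 per doubling of exon length in it, and by 0.05 to 0.20 in the other 5 libraries (14009 genes). Long transcripts were thus relatively scarce in CAST 1. The change was −0.80 in hybrid 2 and −0.40 in hybrid 3, which also entered the fit, and with CAST 1 and hybrid 2 left out 230 genes were called. On the 500 most variable genes, the first principal component held 75.2% of the variance and placed the 129 libraries on one side and the CAST libraries on the other, with CAST 1 farthest out. The second held 17.5% and parted CAST 1 from CAST 2 and CAST 3. Over all tested genes, CAST 2 and CAST 3 were closer to the 129 libraries than to CAST 1. Their Spearman correlations were 0.93 to 0.96 with the 129 libraries, and 0.84 and 0.80 with CAST 1. Nothing in the labels tells whether the replicates are separate cultures, so every p-value measures only the spread between these samples, which may be technical.

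EdgeR's quasi-likelihood test with Benjamini-Hochberg adjustment called 136 genes at an adjusted p under 0.05, which is 0.917% of those tested. Of these, 58 were higher in CAST (0.391%) and 78 lower (0.526%). The 3 CAST libraries lay wholly above or below the 3 129 libraries in all 136, and in 4247 genes, 28.6%, of all tested. At an unadjusted p under 0.05 there were 2164 genes, 14.6%. Over all tested genes the median log2 fold change, CAST minus 129, was 0.06, and it was positive in 7782 of 14839. The called differences were large: the absolute log2 fold change was below 2 in 4, between 2 and 4 in 64, between 4 and 8 in 43, and 8 or more in 25. The count was 106 with the 6 libraries alone in the fit, which kept 92 of the 136 calls. It was 105 without CAST 1, 31 without CAST 2, 61 without CAST 3, and 51, 26 and 32 without 129 1, 129 2 and 129 3. Every one of the 136 had the same direction in each of these fits. This sameness follows from the full separation of CAST from 129 in these genes and is no check of the calls. Of the 136, 23 were called in all 6 fits that leave out 1 library.

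**Figure D1:**
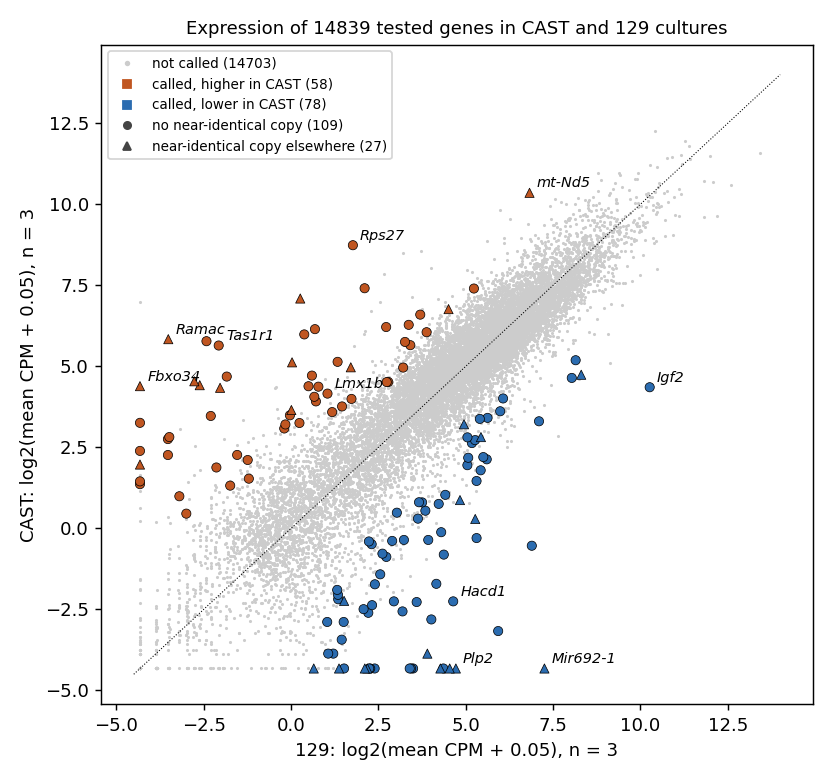
Mean level of each of the 14839 tested genes in 129 (x axis) and in CAST (y axis), as log2(mean CPM + 0.05) over 3 libraries each. Orange symbols are the 58 genes called higher and blue symbols the 78 called lower in CAST, triangles mark the 27 called genes with a near-identical copy elsewhere in the genome, grey points were not called, and the dotted line is equality. Many called genes sit at the left or lower edge, where one line has almost no reads.

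The labelled cell type was checked first against its defining markers. Tubb3, the neuronal beta-tubulin, was at 330.1, 575 and 959.8 CPM in 129 and 3228, 1062 and 549.6 CPM in CAST (log2 fold change 1.38 ± 0.79, edgeR adjusted p = 0.431). Isl1 was at 13.1, 30.6 and 62.7 CPM in 129 and 62.4, 39.7 and 15.7 CPM in CAST, and Slc18a3, the vesicular acetylcholine transporter, at 23.5, 54.9 and 90.3 CPM in 129 and 126, 54.1 and 29.2 CPM in CAST. The lines overlapped in each of these 3 genes, and the 129 libraries differed among themselves several-fold. Chat was at 5.84, 16.6 and 28.4 CPM in 129 and 11.9, 8.93 and 5.52 CPM in CAST (log2 fold change −0.95 ± 0.56, edgeR adjusted p = 0.437). Mnx1 stood at 0.778, 2.99 and 4.88 CPM in 129 and 3.41, 1.797 and 2.58 CPM in CAST, and Lhx3 at 0.222, 2.13 and 1.38 CPM in 129 and 0.619, 0.112 and 0.143 CPM in CAST, so that both factors were read at low level in every library. EdgeR called 0 of 15 genes of spinal motor neuron identity and 0 of 20 general neuron markers, with 1 and 0 at an unadjusted p under 0.05. Their median log2 fold changes were −0.68 and 0.13.

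Markers of other cells were read as well. The fibroblast collagen gene Col1a1 was at 6499, 5030 and 1314 CPM in 129 and 195, 2024 and 2686 CPM in CAST, and Pdgfra, a receptor of mesenchymal cells and of oligodendrocyte precursors, at 48.2, 31.8 and 44.5 CPM in 129 and 0.516, 10.4 and 9.17 CPM in CAST. The CAST libraries lay below those of 129 for Pdgfra (log2 fold change −2.61 ± 0.94, edgeR adjusted p = 0.251) and overlapped with them for Col1a1 (log2 fold change −1.39 ± 1.30, edgeR adjusted p = 0.592). None of the 20 tested fibroblast and mesenchyme markers was called, with 4 at an unadjusted p under 0.05, 7 positive and a median of −1.40. Their summed level ran from 10364 to 41393 CPM in 129 and from 10416 to 17110 CPM in CAST. Without CAST 1 the median was −0.91. No marker of the oligodendrocyte lineage (10 tested, which include Pdgfra), endothelium (8) or muscle (10) was called. Their log2 fold changes were positive in 0, 2 and 2, with medians of −1.66, −1.09 and −1.18. Astrocyte genes were represented by Gfap at 26.96, 3.17 and 3.102 CPM in 129 and 2.17, 23.1 and 14.4 CPM in CAST, with overlapping lines. The muscle gene Actc1 was at 6.504, 1.22 and 5.34 CPM in 129 and 0.103, 0.281 and 0.215 CPM in CAST (adjusted p = 0.0982 by edgeR), and the pluripotency gene Pou5f1 had at most 2 counts in any of the 6 libraries. Hba-a1, a globin gene of red cells, had 0 counts in all 6. Of the microglia and blood list 4 genes were tested and 0 called. All 4 were positive, with a median of 1.22, and 0.13 without CAST 1. Cd68 was at 3.72, 4.82 and 3.68 CPM in 129 and 17.6, 8.03 and 11.04 CPM in CAST, without overlap (edgeR adjusted p = 0.12). Csf1r was at 2.61, 6.77 and 7.07 CPM in 129 and 5.16, 18.1 and 6.52 CPM in CAST, with overlapping lines. In bulk RNA, fewer cells of a type and less RNA per cell cannot be told apart, and the part of cell makeup in the calls below was not tested.

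Among called genes with a mean of at least 1 CPM in both lines, Igf2, an imprinted growth factor that is usually expressed from the paternal allele (ENSMUSG00000048583, chr7:142650766-142666816), had the largest difference toward lower levels in CAST. It was at 1701, 1437 and 555 CPM in 129 and 23.7, 25.3 and 12.2 CPM in CAST. All CAST libraries lay far below 129 3, itself the lowest of its line (log2 fold change −5.91 ± 0.76, edgeR adjusted p = 0.00994). Of 30 tested imprinted genes edgeR called Igf2 alone, beside 0.917% of all tested genes. The list median was 0.10. At an unadjusted p under 0.05 there were 13 of the 30, beside 14.6% of all tested genes. The CAST libraries lay wholly above those of 129 in 8 and wholly below in 6, beside 15.2% and 13.5% of all tested genes. Igf1, a relative of Igf2, was at 524, 221 and 59.9 CPM in 129 and 27.9, 67.996 and 71.97 CPM in CAST and did not pass (log2 fold change −2.26 ± 1.05, edgeR adjusted p = 0.361). Another gene on its strand covers 62.8% of the exonic bases of Igf2, which leaves the source of its reads uncertain. Igf2 was not called without CAST 2 (edgeR adjusted p = 0.0684).

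Genes with many reads were among those lower in CAST. Cd24a, a surface glycoprotein of developing neurons and other immature cells (chr10:43578284-43584265), was at 247, 228 and 312 CPM in 129 and 34.997, 20.3 and 19.5 CPM in CAST (log2 fold change −3.40 ± 0.43, edgeR adjusted p = 0.00829). Ipo5, an importin that carries proteins into the nucleus (chr14:120911224-120947999), was at 277, 309 and 264 CPM in 129 and 31.5, 39.9 and 37.8 CPM in CAST (log2 fold change −2.96 ± 0.37, edgeR adjusted p = 0.00829). In both genes the libraries of a line lay close together relative to the gap between the lines, and CAST 1 was the highest CAST library for Cd24a. Cd24a was not called without CAST 2 (edgeR adjusted p = 0.0684). Ipo5 was not called without CAST 2 or 129 2 (edgeR adjusted p = 0.0684 and 0.0557). Without CAST 1 the log2 fold changes were −3.73 and −2.88.

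Fabp5, a carrier of fatty acids in the cell (chr3:10012548-10016607), was at 105, 132 and 174 CPM in 129 and 14.9, 10.8 and 3.799 CPM in CAST (log2 fold change −3.80 ± 0.66, edgeR adjusted p = 0.0337). Astn2, an astrotactin that acts in the migration of neurons along glia (chr4:65380803-66404611), was at 43.4, 30.2 and 45.3 CPM in 129 and 1.86, 3.54 and 2.72 CPM in CAST (log2 fold change −3.86 ± 0.47, edgeR adjusted p = 0.0075). Mageb16, an X-linked gene of the melanoma antigen family (chrX:79623231-79671435), was at 25.7, 27.01 and 32.8 CPM in 129 and 1.86, 2.41 and 1.08 CPM in CAST (log2 fold change −3.99 ± 0.44, edgeR adjusted p = 0.00556). In all of these the gap between the lines was wider than the spread within either. Hmga1, a chromatin protein that binds AT-rich DNA (chr17:27556497-27563674), was at 38.1, 39.1 and 38.6 CPM in 129 and 1.86, 0.7299 and 0.932 CPM in CAST (log2 fold change −5.06 ± 0.55, edgeR adjusted p = 0.00556). Its near-identical copy Hmga1b had 0 counts in all 6 libraries, and Mageb16 also has copies. Tmem26, a membrane protein gene, was at 10.1, 15.5 and 30.5 CPM in 129 and 1.45, 1.97 and 1.51 CPM in CAST (log2 fold change −3.50 ± 0.51, edgeR adjusted p = 0.016). Fam220a was at 37.02, 40.8 and 51.2 CPM in 129 and 6.504, 2.02 and 1.72 CPM in CAST (log2 fold change −3.67 ± 0.54, edgeR adjusted p = 0.0175), and another gene on its strand covers 61.0% of its exonic bases. The calls of Astn2, Mageb16 and Hmga1 remained without each of the 6 libraries in turn. Fabp5 was not called without CAST 2, CAST 3, 129 1, 129 2 or 129 3 (edgeR adjusted p from 0.0789 to 0.145). Tmem26 was not called without CAST 2, CAST 3, 129 2 or 129 3 (edgeR adjusted p from 0.0575 to 0.0764). Fam220a was not called without CAST 2, CAST 3, 129 1, 129 2 or 129 3 (edgeR adjusted p from 0.0537 to 0.0846).

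**Figure D2:**
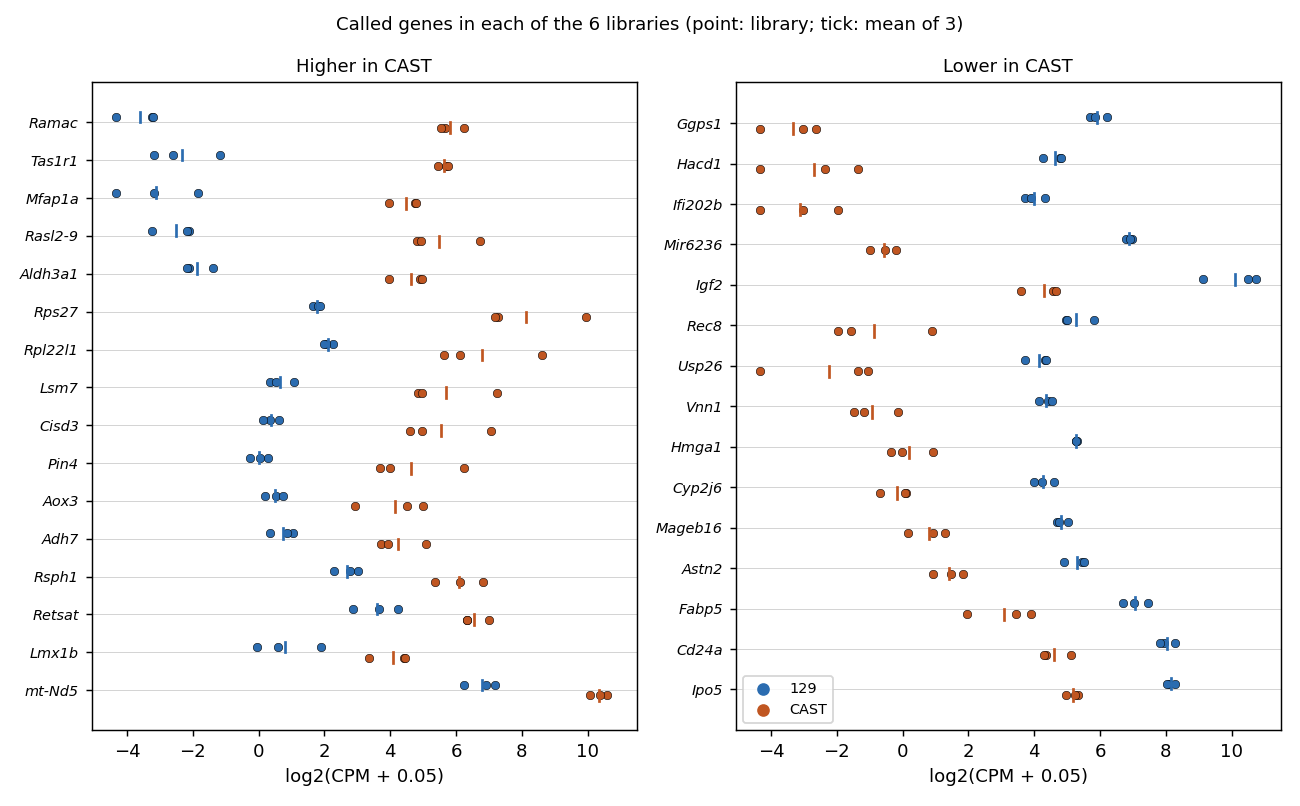
Levels of 16 genes called higher (left) and 15 called lower (right) in CAST, as log2(CPM + 0.05). Each point is a library, blue for 129 and orange for CAST, and the tick is the mean of the 3 log values. The points of the lines are apart in every gene shown, and CAST 1 is the high orange point for Rps27, Rpl22l1, Lsm7, Cisd3 and Pin4.

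Of 16 tested aldehyde dehydrogenases, Aldh3a1 alone was called, higher in CAST, and the list median was −0.04. It (chr11:61207537-61218421) was at 0.334, 0.183 and 0.172 CPM in 129 and 29.8, 31.4 and 15.7 CPM in CAST (log2 fold change 6.74 ± 0.82, edgeR adjusted p = 0.0075). Its relative Aldh3a2 was at 74.2, 66.5 and 66.3 CPM in 129 and 90.1, 84.3 and 81.1 CPM in CAST, a difference that did not pass (log2 fold change 0.30 ± 0.27, edgeR adjusted p = 0.58). Aox3, an aldehyde oxidase (chr1:58113130-58200698), was at 1.39, 1.098 and 1.61 CPM in 129 and 7.64, 32.005 and 22.9 CPM in CAST (log2 fold change 3.93 ± 0.56, edgeR adjusted p = 0.0145). Adh7, an alcohol dehydrogenase that also oxidises retinol (chr3:138217760-138233382), was at 1.22, 2.01 and 1.78 CPM in 129 and 13.01, 33.6 and 15.3 CPM in CAST (log2 fold change 3.62 ± 0.58, edgeR adjusted p = 0.0274). For Aox3 the lowest CAST library was CAST 1, and for Adh7 it was also CAST 1, so neither mean was raised by that library. Aldh3a1 was not called without 129 2 or 129 3 (edgeR adjusted p = 0.063 and 0.0592). Aox3 was not called without CAST 2, 129 1, 129 2 or 129 3 (edgeR adjusted p from 0.0684 to 0.128). Adh7 was not called without CAST 2, CAST 3, 129 1, 129 2 or 129 3 (edgeR adjusted p from 0.0531 to 0.142).

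Of 27 tested cytochrome P450 genes, 1 was called higher and 1 lower in CAST, with a median of −0.08. These calls are 7.41% of the list, beside 0.917% of all tested genes. Cyp4b1, which hydroxylates fatty acids, rose from 1.06, 0.671 and 0.747 CPM in 129 to 9.19, 8.76 and 7.31 CPM in CAST (log2 fold change 3.34 ± 0.47, edgeR adjusted p = 0.0136). Cyp2j6, of a family of arachidonic acid epoxygenases, fell from 24.1, 18.7 and 16.03 CPM in 129 to 1.03, 1.01 and 0.573 CPM in CAST (log2 fold change −4.48 ± 0.47, edgeR adjusted p = 0.00551). Among 17 tested glutathione S-transferases, which join glutathione to reactive compounds, edgeR called Gstm3 higher and no other. At an unadjusted p under 0.05 there were 8, beside 14.6% of all tested genes. Of the 17, 12 were positive. The CAST libraries lay wholly above those of 129 in 6 and wholly below in 2, beside 15.2% and 13.5% of all tested genes. The list median was 0.41, and −0.12 with the trend of each library on exon length removed. Gstm3 was at 1.06, 0.732 and 0.747 CPM in 129 and 8.26, 12.1 and 7.17 CPM in CAST (log2 fold change 3.43 ± 0.59, edgeR adjusted p = 0.0315). Its neighbours in the family, Gstm1 and Gstm7, were chosen after their values were seen. Gstm1 was at 46.1, 26.8 and 28.3 CPM in 129 and 141, 145 and 115 CPM in CAST, and Gstm7 at 8.67, 4.63 and 5.98 CPM in 129 and 44.2, 30.5 and 25.7 CPM in CAST. Neither passed, with edgeR adjusted p-values of 0.0766 and 0.072. The call of Cyp2j6 remained without each of the 6 libraries in turn. Cyp4b1 was not called without CAST 2, 129 1, 129 2 or 129 3 (edgeR adjusted p from 0.0559 to 0.128). Gstm3 was not called without CAST 2, CAST 3, 129 1, 129 2 or 129 3 (edgeR adjusted p from 0.0645 to 0.182).

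Both mitochondrially encoded genes called were higher in CAST. They encode subunits of complex I, the first enzyme of the respiratory chain. The level of mt-Nd5 was 75.1, 144 and 121 CPM in 129 and 1531, 1318 and 1076 CPM in CAST (log2 fold change 3.53 ± 0.49, edgeR adjusted p = 0.0274). That of mt-Nd6 was 0 in all 129 libraries and 2.99, 12.6 and 12.9 CPM in CAST, at least 181-fold higher in CAST (edgeR adjusted p = 0.0434). Neither gene had a count in any of the 3 hybrid libraries. Mitochondrial genes took between 0.0074% and 0.0141% of counts in 129 and between 0.112% and 0.145% in CAST. How mitochondrial reads were handled is not given in the sources used here, and a copy of mt-Nd5 lies in the nuclear genome. mt-Nd5 was not called without CAST 2, CAST 3, 129 1, 129 2 or 129 3 (edgeR adjusted p from 0.0583 to 0.156). mt-Nd6 was not called without CAST 2, CAST 3, 129 1, 129 2 or 129 3 (edgeR adjusted p from 0.101 to 0.152). In the fit on the 6 libraries alone mt-Nd6 had an edgeR adjusted p of 0.0527.

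Lmx1b, which acts in dorsal spinal interneurons and in serotonergic neurons as a transcription factor (chr2:33560965-33640511), was at 1.45, 0.915 and 3.68 CPM in 129 and 10.2, 21.6 and 21.6 CPM in CAST (log2 fold change 3.14 ± 0.57, edgeR adjusted p = 0.0412). The call was the only one among 12 tested genes of hindbrain and serotonergic neurons, beside 0.917% of all tested genes. Of the 12, 5 had an unadjusted p under 0.05, beside 14.6% of all tested genes. Of these 12 genes, 7 were positive, and the median log2 fold change was 0.18. The CAST libraries lay wholly above those of 129 in 4 of them and wholly below in 1, beside 15.2% and 13.5% of all tested genes. Fev, which drives the serotonergic fate with Lmx1b, was at 0.278, 1.95 and 6.72 CPM in 129 and 55.95, 10.8 and 8.89 CPM in CAST and did not pass (edgeR adjusted p = 0.301). Fev was chosen after its values were seen, and CAST 1 was its highest library. Lmx1b was not called without CAST 2, CAST 3, 129 1 or 129 2 (edgeR adjusted p from 0.0958 to 0.178). Lmx1b had an edgeR adjusted p of 0.0827 in the fit on the 6 libraries alone.

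Rps27 and Rpl22l1 were the 2 calls among 75 tested cytosolic ribosomal protein genes and Lsm7 the 1 call among 24 Lsm and Sm genes, and all 3 were highest in CAST 1. Rps27, a protein of the small ribosomal subunit (chr3:90212522-90213651), was at 3.11, 3.41 and 3.56 CPM in 129 and 979, 155 and 146 CPM in CAST (log2 fold change 6.98 ± 1.21, edgeR adjusted p = 0.0336). CAST 2 and CAST 3 lay near each other and well above 129, and without CAST 1 the log2 fold change was 5.46 (edgeR adjusted p = 0.0338). Rpl22l1, a paralogue of the large-subunit protein Rpl22 (chr3:28805436-28807424), was at 4.78, 4.09 and 3.91 CPM in 129 and 390.2, 69.96 and 49.7 CPM in CAST (log2 fold change 5.32 ± 0.94, edgeR adjusted p = 0.0365), and at 3.79 without CAST 1 (edgeR adjusted p = 0.0243). Rpl22 itself was at 156, 157 and 139 CPM in 129 and 599, 156 and 159 CPM in CAST and did not pass (log2 fold change 1.02 ± 0.73, edgeR adjusted p = 0.51). Lsm7, of the ring that binds the ends of U6 RNA and of decaying mRNA (chr10:80852821-80855209), was at 1.22, 2.07 and 1.38 CPM in 129 and 153, 28.6 and 31.04 CPM in CAST (log2 fold change 5.50 ± 0.99, edgeR adjusted p = 0.0406). Its log2 fold change was 4.23 without CAST 1, where the call ended. Rps27 was not called without CAST 2, 129 1, 129 2 or 129 3 (edgeR adjusted p from 0.0684 to 0.179). Rpl22l1 was not called without CAST 2, 129 1, 129 2 or 129 3 (edgeR adjusted p from 0.0684 to 0.187). Lsm7 was not called without any one of the 6 libraries (edgeR adjusted p from 0.0509 to 0.178).

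Cisd3, a mitochondrial protein with iron-sulfur clusters (chr11:97685826-97688621), was at 1.22, 1.04 and 1.49 CPM in 129 and 135, 31.1 and 24.2 CPM in CAST (log2 fold change 5.65 ± 0.96, edgeR adjusted p = 0.0312). Its relatives Cisd1 and Cisd2 did not pass. Cisd1 was at 26.2, 26.5 and 30.8 CPM in 129 and 158, 33.1 and 31.8 CPM in CAST, and Cisd2 at 33.3, 32.99 and 38.8 CPM in 129 and 32.5, 32.1 and 40.1 CPM in CAST. Cisd1 was thus high in CAST 1 alone, while Cisd2 was level across the 6 libraries. Pin4, a parvulin-type prolyl isomerase (chrX:102119447-102127669), was at 0.778, 1.16 and 0.977 CPM in 129 and 75.7, 15.8 and 12.97 CPM in CAST (log2 fold change 5.15 ± 0.83, edgeR adjusted p = 0.0274), and its near-identical copies make the origin of its reads uncertain. Without CAST 1 the log2 fold changes of Cisd3 and Pin4 were 4.44 and 3.86. Cisd3 was not called without CAST 2, 129 1, 129 2 or 129 3 (edgeR adjusted p from 0.0684 to 0.175). Pin4 was not called without CAST 2, 129 1, 129 2 or 129 3 (edgeR adjusted p from 0.0558 to 0.146). Rpl22l1 and Pin4 had edgeR adjusted p-values of 0.0589 and 0.0524 in the fit on the 6 libraries alone.

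The medians of the lists that hold these genes lay closer to 0 without CAST 1. Of 75 tested cytosolic ribosomal protein genes, edgeR called Rps27 and Rpl22l1 (2.67%), 72 were positive and the median log2 fold change was 1.57, and 0.07 without CAST 1. Their summed level was 103489 CPM in CAST 1 and between 14766 and 18879 CPM in the other 5 libraries. Of 77 mitochondrial ribosomal protein genes 0 were called, with 15 at an unadjusted p under 0.05. Their median was 1.15, and 0.16 without CAST 1. The medians with and without CAST 1 were 0.84 and 0.07 for 24 Lsm and Sm proteins, 1.10 and 0.26 for 18 iron-sulfur cluster proteins, and 0.74 and −0.09 for 45 proteasome subunits. These 3 lists had 1, 1 and 0 calls. Exon length was not separated from line in CAST 1. With the trend on exon length removed in each library, the median of the cytosolic ribosomal proteins was 0.72, and the calls of Rps27, Rpl22l1, Lsm7, Cisd3 and Pin4 remained (edgeR adjusted p from 0.000586 to 0.00569).

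**Figure D3:**
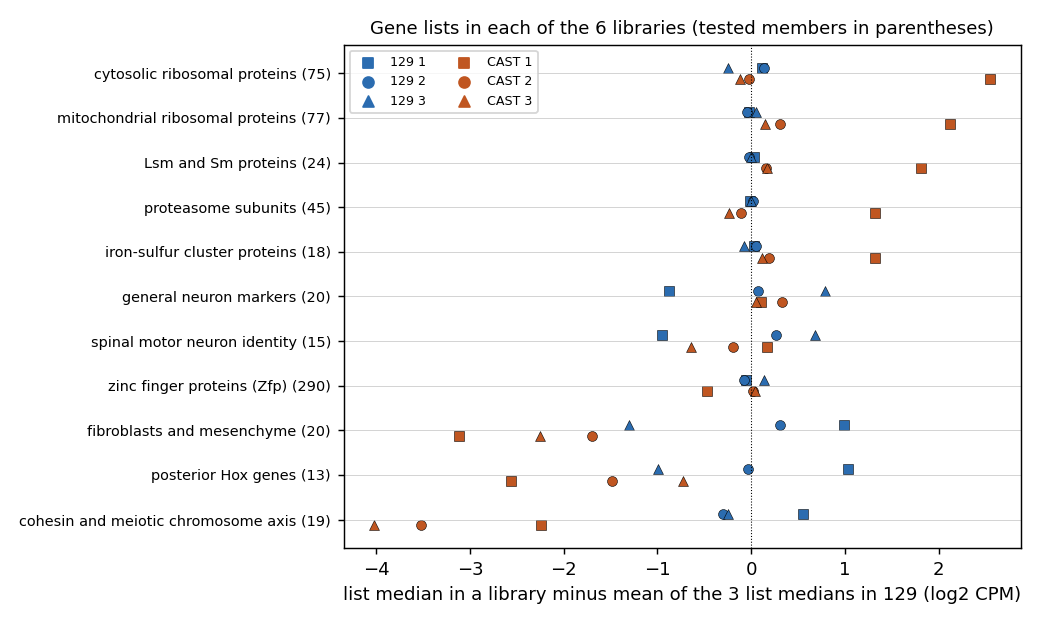
Median log2 CPM of 11 gene lists in each of the 6 libraries, minus the mean of the 3 medians in 129. Squares, circles and triangles are replicates 1, 2 and 3, blue is 129 and orange is CAST, and the number of tested members stands beside each name. For the ribosomal, Lsm and Sm, proteasome and iron-sulfur lists only the CAST 1 square lies far from 0, whereas the posterior Hox list is below 129 1 and 129 2 in all CAST libraries.

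Of 19 tested genes of cohesin and the meiotic chromosome axis, Rec8 and Syce1 were called lower in CAST. Rec8, the kleisin subunit of meiotic cohesin (chr14:55618037-55625395), was at 55.98, 30.9 and 32.1 CPM in 129 and 0.206, 1.797 and 0.287 CPM in CAST (log2 fold change −5.60 ± 0.77, edgeR adjusted p = 0.0135). Syce1, of the central element that joins paired chromosomes (chr7:140777229-140787852), was at 3.61, 5.92 and 6.09 CPM in 129 and had 0 counts in CAST, at least 71.5-fold lower in CAST (edgeR adjusted p = 0.007). The 2 calls are 10.5% of the list, against 0.526% of all tested genes called lower. The list was chosen with earlier results of these data known, so this share is a description and no test of the list. A further 5 members had an unadjusted p under 0.05, among them Sycp1 at 5.003, 14.5 and 7.41 CPM in 129 and 0.3097, 0.337 and 0 CPM in CAST (edgeR adjusted p = 0.0644) and Sycp3 at 1.06, 2.5002 and 1.61 CPM in 129 and 0.103, 0.112 and 0 CPM in CAST (edgeR adjusted p = 0.0608), both chosen after their values were seen. The list median was −0.89, and −0.46 without CAST 1, and the summed level of the list ran from 1183 to 1212 CPM in 129 and was 327, 885 and 1117 CPM in CAST. Rad21, the kleisin of dividing and resting cells, was at 173, 151 and 172 CPM in 129 and 83.7, 145 and 186 CPM in CAST and did not pass (log2 fold change −0.26 ± 0.41, edgeR adjusted p = 0.742). The call of Syce1 remained without each of the 6 libraries in turn. Rec8 was not called without 129 2 or 129 3 (edgeR adjusted p = 0.0538 and 0.0526).

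Genes of innate immunity were called lower in CAST in a few cases. Ifi202b, a cytosolic DNA-binding protein of the interferon-inducible IFI200 family (chr1:173962568-173982744), was at 13.2, 15.001 and 20.2 CPM in 129 and 0.206, 0 and 0.0717 CPM in CAST. With 3 counts in CAST this was a ratio of 223 with a 95% counting interval of 75.95 to 1082 (edgeR adjusted p = 0.00551). Of 11 tested guanylate-binding proteins, immunity-related GTPases and Schlafens, Gbp9 and Tgtp1 were called lower, 18.2% against 0.526% of all tested, and both had 0 counts in the hybrid. That list was also chosen with earlier results known, so its share is a description. Gbp9 was at 6.28, 3.17 and 4.54 CPM in 129 and had 0 counts in CAST, at least 65.1-fold lower in CAST (edgeR adjusted p = 0.0312). Tgtp1 was at 3.28, 2.68 and 1.67 CPM in 129 and had 0 counts in CAST, at least 35.2-fold lower in CAST (edgeR adjusted p = 0.0451), and its reads cannot be told from those of the near-identical Tgtp2 by these counts. The family member with the most reads in 129 1, Irgm1, was chosen after its values were seen, at 61.9, 42.1 and 21.6 CPM in 129 and 10.01, 5.95 and 1.22 CPM in CAST and did not pass (edgeR adjusted p = 0.1). MHC class I genes gave 0 calls among 5, with 0 at an unadjusted p under 0.05. The call of Ifi202b remained without each of the 6 libraries in turn. Gbp9 was not called without CAST 2, CAST 3, 129 1, 129 2 or 129 3 (edgeR adjusted p from 0.0677 to 0.151). Tgtp1 was not called without any one of the 6 libraries (edgeR adjusted p from 0.0741 to 0.23).

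Many of the largest differences concerned genes with reads in 1 line and few in the other. Genes with 3 or fewer counts in 1 line and over 30 in the other made up 33 of the 136 calls, 24.3%, and 102 of all tested, 0.687%. Ramac, the activating subunit of the enzyme that methylates the mRNA cap (ENSMUSG00000038646, chr7:81762925-81769491), was at 0.0556, 0 and 0.0575 CPM in 129 and 74.9, 50.2 and 46.4 CPM in CAST. With 2 counts in 129 this was a ratio of 1416 with a 95% counting interval of 392 to 11703 (edgeR adjusted p = 0.0029). It was the only call among 16 tested genes of cap methylation and the RNA 5′ end, and the list median was −0.04. Fbxo34, an F-box protein of ubiquitin ligases (chr14:47450421-47531962), had 0 counts in 129 and 23.4, 16.6 and 22.7 CPM in CAST, at least 349-fold higher in CAST (edgeR adjusted p = 0.0075). The other 58 tested F-box genes gave no call, and its relative Fbxo46 was at 14.3, 14.8 and 12.7 CPM in 129 and 22.4, 12.5 and 15.7 CPM in CAST. Both Ramac and Fbxo34 have near-identical copies, and both had 0 counts in the 3 hybrid libraries, made from a cross of the 2 lines. The calls of Ramac and Fbxo34 remained without each of the 6 libraries in turn.

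Tas1r1, which pairs with Tas1r3 to form the umami taste receptor (chr4:152027914-152038568), was at 0.389, 0.06098 and 0.115 CPM in 129 and 44.1, 51.7 and 53.9 CPM in CAST (log2 fold change 7.97 ± 0.72, edgeR adjusted p = 0.00321). Tas1r3 was at 0.389, 0.305 and 0.2298 CPM in 129 and 0, 0.168 and 0 CPM in CAST, so that the partner was nearly unread in both lines. Mfap1a, a spliceosome protein (chr2:121491911-121506665), was at 0, 0.06098 and 0.2298 CPM in 129 and 15.6, 26.8 and 27.2 CPM in CAST (log2 fold change 7.78 ± 0.88, edgeR adjusted p = 0.0124). Rasl2-9, a Ran-like GTPase (chr7:5124938-5125950), was at 0.0556, 0.183 and 0.172 CPM in 129 and 106, 27.8 and 30.4 CPM in CAST (log2 fold change 8.56 ± 0.88, edgeR adjusted p = 0.00888). CAST 1 was the highest library for Rasl2-9, and without CAST 1 its log2 fold change was 7.645. Mfap1a and Rasl2-9 both had 0 counts in the hybrid. The reads of Mfap1a are uncertain in origin because Mfap1b is 99.3% identical over the aligned part. Sft2d1, a protein of vesicle traffic, was at 1.39, 2.81 and 3.22 CPM in 129 and 48.9, 28.7 and 27.9 CPM in CAST (log2 fold change 3.83 ± 0.46, edgeR adjusted p = 0.0075). Gzmd, a granzyme, was at 0.167, 0.122 and 0.172 CPM in 129 and 26.2, 4.04 and 2.795 CPM in CAST (log2 fold change 6.07 ± 1.07, edgeR adjusted p = 0.0365), with CAST 1 the highest. Hspa1b, an inducible heat shock protein whose copy Hspa1a is 99.2% identical, was at 0.945, 0.549 and 1.38 CPM in 129 and 14.6, 7.805 and 15.2 CPM in CAST (log2 fold change 3.69 ± 0.56, edgeR adjusted p = 0.0336). The call of Tas1r1 remained without each of the 6 libraries in turn. Mfap1a was not called without CAST 2 or 129 2 (edgeR adjusted p = 0.0684 and 0.107). Rasl2-9 was not called without 129 2 or 129 3 (edgeR adjusted p = 0.063 and 0.0639). Sft2d1 was not called without 129 2 (edgeR adjusted p = 0.0557). Gzmd was not called without CAST 2, 129 1, 129 2 or 129 3 (edgeR adjusted p from 0.0684 to 0.189). Hspa1b was not called without any one of the 6 libraries (edgeR adjusted p from 0.0641 to 0.174). Gzmd had an edgeR adjusted p of 0.0649 in the fit on the 6 libraries alone.

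Of the genes read in 129 and nearly absent in CAST, Ggps1, which makes the geranylgeranyl group that anchors small GTPases to membranes (chr13:14050659-14063488), was at 52.03, 57.3 and 73.3 CPM in 129 and 0, 0.112 and 0.0717 CPM in CAST. With 3 counts in CAST this was a ratio of 841 with a 95% counting interval of 287 to 4078 (edgeR adjusted p = 0.0029). Hacd1, a dehydratase of very long chain fatty acid synthesis (chr2:13850282-14056135), was at 27.2, 28.2 and 19.4 CPM in 129 and 0, 0.337 and 0.143 CPM in CAST (log2 fold change −7.04 ± 0.73, edgeR adjusted p = 0.00551). Its relatives Hacd2, at 41.9, 28.4 and 24.1 CPM in 129 and 51.5, 41.2 and 52.3 CPM in CAST, and Hacd3, at 136, 153 and 200.4 CPM in 129 and 209, 160.03 and 135 CPM in CAST, did not pass, and Hacd1 was the only call among 15 genes of that pathway. Taf9, a subunit of TFIID that helps to recruit RNA polymerase II (chr13:100651579-100656060), was at 20.8, 20.6 and 20.1 CPM in 129 and had 0 counts in CAST, at least 283-fold lower in CAST (edgeR adjusted p = 0.0075). Another gene on its strand covers 73.8% of its exonic bases, and its paralogue Taf9b was at 25.3, 27.3 and 41.4 CPM in 129 and 36.96, 34.6 and 27.6 CPM in CAST (log2 fold change 0.08 ± 0.36, edgeR adjusted p = 0.919). Ggps1 and Taf9 had 0 counts in the hybrid, and Hacd1 had 670. The calls of Ggps1 and Hacd1 remained without each of the 6 libraries in turn. Taf9 was not called without 129 2 or 129 3 (edgeR adjusted p = 0.0538 and 0.0511).

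Inafm1 was at 9.56, 10.2 and 11.7 CPM in 129 and had 0 counts in CAST, at least 145-fold lower in CAST (edgeR adjusted p = 0.00673). Igsf23, of the immunoglobulin superfamily, was at 9.56, 12.4 and 11.7 CPM in 129 and also had 0 counts in CAST, at least 154-fold lower in CAST (edgeR adjusted p = 0.00551). The hybrid held 494 and 21 counts of these genes. Usp26, an X-linked deubiquitinase (chrX:51753959-51801233), was at 13.2, 19.9 and 20.3 CPM in 129 and 0, 0.337 and 0.4301 CPM in CAST (log2 fold change −5.98 ± 0.83, edgeR adjusted p = 0.0136), 1 call among 46 tested ubiquitin-specific peptidases. Nxf3, of the family of nuclear RNA export factors, was at 4.84, 10.7 and 20.6 CPM in 129 and 0.103, 0.225 and 0.143 CPM in CAST (log2 fold change −6.12 ± 0.80, edgeR adjusted p = 0.0111). Vnn1, a pantetheinase of coenzyme A turnover (chr10:23894688-23905343), was at 17.6, 21.4 and 23.04 CPM in 129 and 0.3097, 0.393 and 0.8601 CPM in CAST (log2 fold change −5.27 ± 0.70, edgeR adjusted p = 0.0114). In all 3 of these genes every CAST library was below 1 CPM. The calls of Inafm1 and Igsf23 remained without each of the 6 libraries in turn. Usp26 was not called without CAST 2, 129 2 or 129 3 (edgeR adjusted p from 0.0592 to 0.0764). Nxf3 was not called without CAST 2 or CAST 3 (edgeR adjusted p = 0.0684 and 0.0523). Vnn1 was not called without CAST 2, 129 2 or 129 3 (edgeR adjusted p from 0.0535 to 0.0764).

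Near-identical copies were frequent among the calls. A transcript counted as having one where another gene that does not overlap it matched at 95% identity or more over at least 50% of its length. This held for 27 of 136 called genes, 19.9%, and for 241 of all tested, 1.62%. With those genes left out, an alternative chosen after seeing the data, 87 genes were called. The hybrid had 0 counts in all 3 libraries for 27 of the 136, 19.9%, and for 180 of all tested, 1.21%. Both features were present in 15 called genes, which is 55.6% of the 27 with a copy, while 36 of all 241 tested genes with a copy, 14.9%, had 0 counts in the hybrid. Of the 33 genes with 3 or fewer counts in 1 line, 18 were at 0 in the hybrid and 12 had a copy. Whether sequence differences between the lines, or the treatment of reads that fit several places, produce these counts was not tested. The hybrid mean lay between the means of CAST and 129 in 94 of the 136, 69.1%, and in 31.7% of all tested. That share draws on the values that made the calls and is a description.

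**Figure D4:**
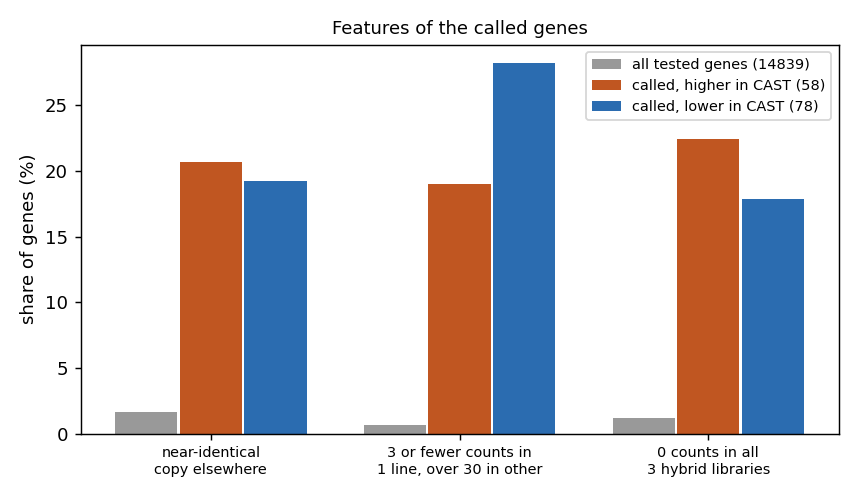
Share of genes with each of 3 features among all 14839 tested genes (grey), the 58 called higher (orange) and the 78 called lower in CAST (blue), in percent. Each feature is over 10 times as frequent among the calls of either direction as among all tested genes, which for the feature of few counts in 1 line is built into the calling and is no finding.

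The microRNA gene Mir692-1 is one of the called genes with a copy. It was at 145, 205 and 107 CPM in 129 and had 0 counts in CAST and in the hybrid, at least 2092-fold lower in CAST (edgeR adjusted p = 0.00654). Its annotated gene (chr17:6895229-6895337, minus strand, GRCm38, from GENCODE M21) is a stretch of 109 bases and matches 12 other genes, the closest being Ftl1-ps1, a ferritin light chain pseudogene. It is printed whole, since the reads counted here must fall in it, with the 2 bases that differ from the Ftl1-ps1 transcript in capitals; 2 further bases are inserted in that transcript.
Mir692-1: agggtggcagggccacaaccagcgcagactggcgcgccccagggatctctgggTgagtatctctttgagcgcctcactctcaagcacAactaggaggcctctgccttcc
Poly(A) libraries with fragments of usual size do not read mature microRNAs, so these counts need not be reads of the microRNA. The other microRNA gene named by its size, Mir6236 (chr9:110281287-110281409), was at 125, 111 and 119.5 CPM in 129 and 0.826, 0.449 and 0.645 CPM in CAST (log2 fold change −7.54 ± 0.45, edgeR adjusted p = 0.0029), and also had 0 counts in the hybrid. EdgeR called 2 of 26 tested genes of the microRNA list, both lower in CAST. They are 7.69% of the list, beside 0.526% of all tested genes called lower. The calls of Mir692-1 and Mir6236 remained without each of the 6 libraries in turn.

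Plp2, an X-linked membrane proteolipid of the endoplasmic reticulum, and its copy Gm6169 on chromosome 13 were both without counts in CAST. Plp2 was at 29.1, 30.7 and 19.02 CPM and Gm6169, chosen after its values were seen, at 23.1, 21.8 and 13.1 CPM in 129, and both had 0 counts in all 3 CAST libraries. They were at least 362-fold and 267-fold lower in CAST (edgeR adjusted p = 0.00673 and 0.0114). In the hybrid, Plp2 had 2013 counts and Gm6169 had 0. A stretch of 100 coding bases, from base 15 of the coding sequence, was picked for having the most differing bases among stretches of that length. The 2 differing bases are in capitals (GENCODE M21 on GRCm38, Plp2 chrX:7667941-7671390 and Gm6169 chr13:97098208-97099237, both minus strand).
Plp2: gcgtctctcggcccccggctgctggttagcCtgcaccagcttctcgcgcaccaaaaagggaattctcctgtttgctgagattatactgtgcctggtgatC
Gm6169: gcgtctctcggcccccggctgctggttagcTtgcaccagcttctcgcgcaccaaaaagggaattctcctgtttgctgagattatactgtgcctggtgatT
The summed level of both genes was 45.6 ± 11.7 CPM in 129 (SD, n = 3) and 0 in CAST, and which of them the reads came from was not tested. Pllp, a more distant proteolipid, was at 8.67, 2.07 and 2.18 CPM in 129 and 2.27, 3.31 and 4.01 CPM in CAST and did not pass. The call of Plp2 remained without each of the 6 libraries in turn. Gm6169 was not called without 129 1 or 129 2 (edgeR adjusted p = 0.061 and 0.0713).

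Other copies behaved differently, as when the parent gene was read in both lines and the copy in 1. The next genes were chosen after their values were seen. Gm10093, a processed copy of the histone deacetylase gene Hdac1, was at 0.222, 0.06098 and 0.0575 CPM in 129 and 26.02, 19.99 and 17.99 CPM in CAST (log2 fold change 7.43 ± 0.65, edgeR adjusted p = 0.00556). Hdac1 itself was at 107, 76.2 and 59.9 CPM in 129 and 74.7, 66.6 and 61.9 CPM in CAST and did not pass (log2 fold change −0.26 ± 0.34, edgeR adjusted p = 0.693). The copy is 99.4% identical to Hdac1 over the aligned part. Of the aligned coding stretches of 100 bases, one with the most differing bases was picked, from base 383. Its 6 differing bases are in capitals (Hdac1 chr4:129516104-129542713, minus strand, and Gm10093 chr17:78491582-78493025, plus strand, GENCODE M21 on GRCm38).
Hdac1: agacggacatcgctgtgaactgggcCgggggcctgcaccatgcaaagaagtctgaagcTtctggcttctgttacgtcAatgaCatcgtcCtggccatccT
Gm10093: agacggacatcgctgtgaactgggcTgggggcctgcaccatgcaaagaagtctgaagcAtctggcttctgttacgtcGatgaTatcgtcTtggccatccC
Gm12355, a copy of the splicing factor gene Srsf3, went the other way, at 14.1, 12.3 and 18.3 CPM in 129 and 0, 0.0561 and 0 CPM in CAST, against 109, 108 and 128 CPM in 129 and 179.5, 174 and 158 CPM in CAST for Srsf3. With 1 count in CAST this was a ratio of 619 with a 95% counting interval of 111 to 24496 (edgeR adjusted p = 0.00576). Gm10282, a copy of the nucleosome-binding protein gene Hmgn2, had 0 counts in 129 and 3.304, 3.93 and 4.37 CPM in CAST, at least 67.9-fold higher in CAST (edgeR adjusted p = 0.0274), and Hmgn2 did not pass (log2 fold change 0.76 ± 0.32, edgeR adjusted p = 0.326). Siah1a, a ubiquitin ligase, was at 27.8, 29.5 and 35.4 CPM in 129 and 10.5, 6.46 and 10.7 CPM in CAST (log2 fold change −1.74 ± 0.32, edgeR adjusted p = 0.0412), while its paralogue Siah1b was at 3.95, 4.33 and 5.52 CPM in 129 and 7.12, 6.79 and 5.95 CPM in CAST. The first 3 of these copies had 0 counts in the hybrid, and Siah1a had 858. The calls of Gm10093 and Gm12355 remained without each of the 6 libraries in turn. Gm10282 was not called without any one of the 6 libraries (edgeR adjusted p from 0.0563 to 0.12). Siah1a was not called without any one of the 6 libraries (edgeR adjusted p from 0.0503 to 0.182). Siah1a had an edgeR adjusted p of 0.0715 in the fit on the 6 libraries alone.

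**Figure D5:**
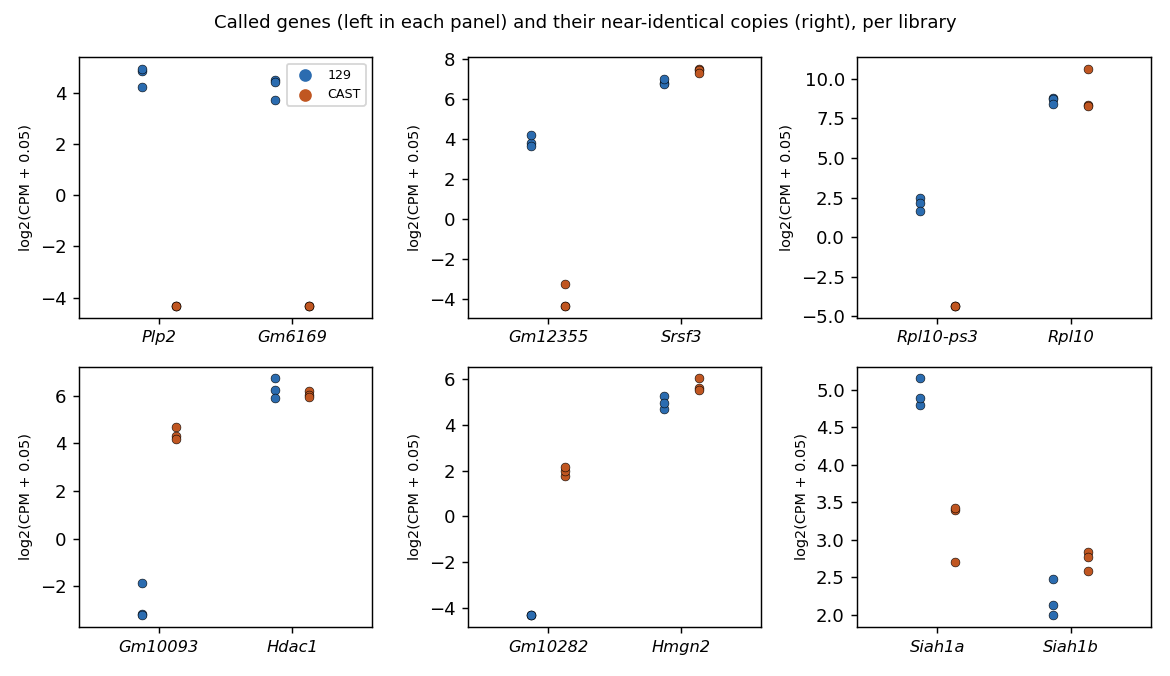
Levels of 6 called genes (left in each panel) and of the near-identical copy (right), as log2(CPM + 0.05), with 1 point per library, blue for 129 and orange for CAST. Plp2 and Gm6169 are both at 0 in CAST, at the bottom of their panel, whereas Srsf3, Rpl10, Hdac1 and Hmgn2 are read in every library of both lines.

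Further called genes outside the naming rule were chosen after their values were seen, for their known roles in neurons and neighbouring cells. Gldn, gliomedin, which clusters sodium channels at nodes of peripheral axons, was at 61.3, 57.02 and 71.8 CPM in 129 and 11.7, 10.7 and 14.2 CPM in CAST (log2 fold change −2.38 ± 0.37, edgeR adjusted p = 0.0234). Kcnj5, an inward rectifier potassium channel gated by G proteins, was at 19.6, 22.2 and 22.1 CPM in 129 and 0.929, 1.63 and 3.44 CPM in CAST (log2 fold change −3.40 ± 0.51, edgeR adjusted p = 0.0202). Htr2a, a serotonin receptor, was at 9.34, 22.4 and 11.3 CPM in 129 and 0.723, 1.57 and 1.94 CPM in CAST (log2 fold change −3.32 ± 0.59, edgeR adjusted p = 0.0386). Each of these 3 was lower in all CAST libraries than in any 129 library. Slco2a1, a prostaglandin transporter, was at 27.1, 63.97 and 54.4 CPM in 129 and 1.55, 5.78 and 5.66 CPM in CAST (log2 fold change −3.47 ± 0.55, edgeR adjusted p = 0.0274), and Ctsc, a lysosomal protease, at 53.03, 49.7 and 33.2 CPM in 129 and 2.68, 3.93 and 7.02 CPM in CAST (log2 fold change −3.31 ± 0.54, edgeR adjusted p = 0.0274). Gldn was not called without any one of the 6 libraries (edgeR adjusted p from 0.0534 to 0.12). Kcnj5 was not called without CAST 2, 129 1, 129 2 or 129 3 (edgeR adjusted p from 0.0647 to 0.107). Htr2a was not called without any one of the 6 libraries (edgeR adjusted p from 0.0815 to 0.178). Slco2a1 was not called without CAST 2, CAST 3, 129 2 or 129 3 (edgeR adjusted p from 0.0675 to 0.132). Ctsc was not called without CAST 1, CAST 2, 129 1, 129 2 or 129 3 (edgeR adjusted p from 0.0564 to 0.134). Htr2a and Slco2a1 had edgeR adjusted p-values of 0.0582 and 0.0612 in the fit on the 6 libraries alone.

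Higher in CAST among genes chosen in the same way was Retsat, a retinol saturase, at 18.96, 12.7 and 7.18 CPM in 129 and 80.8, 80.5 and 129 CPM in CAST (log2 fold change 2.90 ± 0.44, edgeR adjusted p = 0.0206). Rsph1, a radial spoke protein of motile cilia, was at 8.005, 4.82 and 6.84 CPM in 129 and 113, 68.95 and 40.7 CPM in CAST (log2 fold change 3.50 ± 0.50, edgeR adjusted p = 0.0146). Oaz2, an antizyme that limits polyamines and one of the calls with the most reads, was at 38.7, 33.8 and 40.4 CPM in 129 and 220.4, 157 and 129 CPM in CAST (log2 fold change 2.17 ± 0.32, edgeR adjusted p = 0.0177). CAST 1 was the highest library for Rsph1 and Oaz2 and not for Retsat. Cort, the neuropeptide cortistatin, had 0 counts in 129 and 1.86, 3.93 and 1.79 CPM in CAST, at least 47.1-fold higher in CAST (edgeR adjusted p = 0.0274). Kcnmb3, a regulatory subunit of calcium-activated potassium channels, was at 0.111, 0 and 0 CPM in 129 and 3.51, 7.52 and 3.23 CPM in CAST, and with 2 counts in 129 this was a ratio of 133 with a 95% counting interval of 36.4 to 1106 (edgeR adjusted p = 0.0253). Retsat was not called without CAST 2, CAST 3, 129 2 or 129 3 (edgeR adjusted p from 0.0583 to 0.142). Rsph1 was not called without CAST 2, 129 1, 129 2 or 129 3 (edgeR adjusted p from 0.0684 to 0.128). Oaz2 was not called without CAST 2, 129 1, 129 2 or 129 3 (edgeR adjusted p from 0.0752 to 0.161). Cort was not called without CAST 2, CAST 3, 129 1, 129 2 or 129 3 (edgeR adjusted p from 0.0583 to 0.111). Kcnmb3 was not called without CAST 2, CAST 3, 129 1, 129 2 or 129 3 (edgeR adjusted p from 0.0515 to 0.142). Retsat and Cort had edgeR adjusted p-values of 0.0559 and 0.052 in the fit on the 6 libraries alone.

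The rest of the rule's names were Nutf2-ps1, Serpinb8 and Zfp607a. Nutf2-ps1, a copy of the nuclear transport factor gene Nutf2 and 100% identical to it over the aligned part, was at 20.8, 24.5 and 24.4 CPM in 129 and had 0 counts in CAST and in the hybrid, at least 320.4-fold lower in CAST (edgeR adjusted p = 0.00713). Serpinb8, a protease inhibitor, was at 31.8, 48.6 and 67.6 CPM in 129 and 8.57, 12.1 and 11.04 CPM in CAST (log2 fold change −2.22 ± 0.37, edgeR adjusted p = 0.0285), 1 call among 20 tested serpins. Zfp607a, a zinc finger protein, was at 3.17, 2.81 and 2.47 CPM in 129 with 0 counts in CAST, at least 38.9-fold lower in CAST (edgeR adjusted p = 0.0347). It was the only call among 290 tested Zfp genes, 0.345%, with 35 at an unadjusted p under 0.05 and a median of −0.20. Nutf2-ps1 was not called without 129 2 (edgeR adjusted p = 0.051). Serpinb8 was not called without CAST 1, CAST 2, CAST 3, 129 2 or 129 3 (edgeR adjusted p from 0.0564 to 0.142). Zfp607a was not called without any one of the 6 libraries (edgeR adjusted p from 0.0526 to 0.181). Serpinb8 had an edgeR adjusted p of 0.0567 in the fit on the 6 libraries alone.

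Hox genes, which set position along the body axis, gave no call, posterior or anterior. Of 13 tested posterior Hox genes 7 had an unadjusted p under 0.05, beside 14.6% of all tested genes. Of the 13, 1 had a positive log2 fold change, with a median of −2.04, and −2.10 without CAST 1. The list median was 2.50 log2 CPM in CAST 3, above the 2.23 in 129 3. Hoxb8 was at 91.8, 43.7 and 32.3 CPM in 129 and 21.9, 32.7 and 55.05 CPM in CAST, with overlapping lines (log2 fold change −0.61 ± 0.48, edgeR adjusted p = 0.539). Hoxb9 was at 79.1, 52.3 and 24.8 CPM in 129 and 5.88, 10.2 and 21.9 CPM in CAST (log2 fold change −2.04 ± 0.72, edgeR adjusted p = 0.243), and Hoxc8, chosen after its values were seen, at 19.01, 8.96 and 3.68 CPM in 129 and 0, 0.225 and 0.717 CPM in CAST (log2 fold change −4.97 ± 1.11, edgeR adjusted p = 0.0788). The CAST libraries lay below all 129 libraries in 9 of the 13, against 13.5% of all tested genes. Of 13 anterior Hox genes 12 were positive, with a median of 0.51 and 2 at an unadjusted p under 0.05. Regeneration-associated genes, a list made for the neurite growth that the series is about, gave 0 calls among 30, with 1 at an unadjusted p under 0.05 and a median of −0.27. Gap43, a growth cone protein of that list, was at 392, 510.4 and 804 CPM in 129 and 1361, 721 and 534 CPM in CAST (log2 fold change 0.62 ± 0.57, edgeR adjusted p = 0.59). Atf3, induced by axon injury, was at 15.3, 26.3 and 37.6 CPM in 129 and 35.5, 9.096 and 11.5 CPM in CAST (log2 fold change −0.50 ± 0.60, edgeR adjusted p = 0.669). Inhba, an activin subunit gene, was at 191, 229.9 and 82.2 CPM in 129 and 5.68, 40.03 and 87.9 CPM in CAST (log2 fold change −1.91 ± 1.25, edgeR adjusted p = 0.472). The lines overlapped in these last 3 genes.

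Of 4 tested genes on the mitochondrial chromosome 2 were called. On the other chromosomes the called share was highest, at 1.83%, on chromosome 14, where 9 of 492 tested genes were called, 1.51% on chromosome 13, and lowest, at 0.218%, on chromosome 16, beside 0.917% over all. By annotated class, 113 of 13988 protein-coding genes were called, 0.808%, and 3 of 12 processed pseudogenes. Genes with at least 1 CPM in both lines made up 58 of the 136 calls, 42.6%, and 85.7% of all tested. So most calls were of genes with a mean below 1 CPM in at least 1 line.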

How the data were processed

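Polyadenylated RNA was sequenced from motor neuron cultures, with 3 libraries each of 129, CAST and their hybrid. Per the labels' protocols, cDNA was primed with random hexamers, and STAR and mm10 are the aligner and build named per the submitters' processing notes. Versions, the counting tool, its annotation and its use of strand were not given in the sources used here, so overlapping and antisense genes cannot be told apart. The deposited matrix holds raw counts per Ensembl gene, whole numbers that the authors left unscaled as far as the values tell. Symbols were found for 27031 of 27071 genes in GENCODE M21 (GRCm38, also called mm10), which also gave coordinates, exon lengths and overlaps. The labels list 11 samples, of which CAST 7 and CAST 8 were not analysed here.

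Genes were kept by filterByExpr (minimum count 10, minimum total 15, proportion 0.7), with TMM scaling, and tested by glmQLFit (robust) and glmQLFTest of edgeR 4.0.16 (R 4.3.3), a quasi-likelihood fit over all 9 libraries with no covariates. The contrast was CAST minus 129, two-sided, with Benjamini-Hochberg adjustment over 14839 genes and a threshold of 0.05. Errors of log2 fold changes are standard errors (SE), and CPM carry the SD over n = 3. A line at 0 counts was set to a floor of 3 counts over the line, and ratios at 1 to 3 counts carry exact 95% intervals. Intervals and floors cover counting error only. Script steps were tested on simulated data.

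The members and the 45 gene lists were chosen with earlier results of these data known. Named genes were the 15 largest changes in each direction with a mean of at least 5 CPM, the 8 largest in each direction with at least 1 CPM in both lines, the 8 with the highest mean, up to 3 called members a list in each direction (or the 2 with the most reads), named relatives, and Mnx1, Isl1, Lhx3, Chat, Tubb3, Xist, Inhba, Gap43 and Atf3. Predicted and unnamed genes were left out of the first 3 groups. Some genes that this rule names are not reported here. Near-identical copies were searched with blastn 2.17.0 after seeing the data. Alternatives were DESeq2 1.42.0, voom of limma 3.58.1, other scaling and filters, an exon length offset, a replicate block, and leaving out libraries.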

Additional observations from a re-analysis of the deposited data

How the results depend on the processing

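All 136 called genes had the same direction in every alternative in which they were tested. The count of calls was 939 with DESeq2 (434 higher, 505 lower; 135 of the 136 shared, and Rps27 without an adjusted p), 234 with limma-voom (147 lower), 267 with the exon length offset (109 and 158), and 230 with both CAST 1 and hybrid 2 left out (104 and 126). The fit on the 6 libraries alone called 38 higher, and with genes that have a near-identical copy left out, chosen after seeing the data, 87 were called, 32 of them higher. Leaving out 1 library gave from 26 to 105 calls, 7 to 45 higher and 19 to 60 lower. Other scaling and filters and the fit without the robust option gave 127 to 177. With the replicate number as a block 6 genes were called, 2 higher and 4 lower. Whether equal numbers mark a shared batch is not given in the sources used here. After group means were removed, the correlations of same-number libraries were −0.14, −0.08 and −0.21. Libraries of unlike number were not compared in this way, so these values cannot settle whether the libraries are paired. Counts of 0 to 3 in a line limit many of the largest differences to bounds or wide intervals. Signs of single genes were followed for 158 genes only, the 136 calls and further named genes. Of these, named genes that were not called changed sign in 26 cases, and the cause was not tested. A case is a gene in an alternative, and signs of all other uncalled genes were not followed. The log2 fold changes of the genes that changed sign follow, with the value over all libraries in parentheses. Mnx1 (−0.16) was at 0.13 with limma-voom, 0.24 with the replicate block and −0.61 to 0.45 with 1 library left out. Cisd2 (−0.0058) was at 0.39 with the exon length offset, 0.019 with CAST 1 and hybrid 2 left out and −0.12 to 0.071 with 1 library left out. Hacd3 (0.046) was at −0.26 with the exon length offset, −0.17 with CAST 1 and hybrid 2 left out and −0.15 to 0.22 with 1 library left out. Taf9b (0.078) was at −0.13 with the exon length offset, −0.037 with CAST 1 and hybrid 2 left out and −0.061 to 0.33 with 1 library left out. Isl1 (0.15) was at −0.38 with CAST 1 and hybrid 2 left out and −0.36 to 0.84 with 1 library left out. Fbxo46 (0.27) was at −0.013 with CAST 1 and hybrid 2 left out and −0.0025 to 0.44 with 1 library left out. Gap43 (0.62) was at −0.029 with the exon length offset. Pllp (−0.43) was at −0.76 to 0.59 with 1 library left out.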
